A study of Rattus norvegicus with 16 samples.

Results

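The genes described here are 9 interferon response genes of the rat mammary gland: Isg15, Mx1, Mx2, Ifit2, Ifit3, Oas1a, Irf7, Rsad2 and Usp18. They were named as classic targets of type I interferon, and each is represented by the brightest, on average over the 16 arrays, of the probe sets that the platform annotation assigns to its symbol and no other. All 9 were represented, each by 1 probe set, among 14324 genes named on the array, and all 9 lay above the filter on dim probe sets that left 11796 genes for testing.

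The glands came from female Wistar Han offspring of dams gavaged once daily from gestational day 1 until weaning at postnatal day (PND) 21. Dams received vinclozolin and genistein together (the mixture), vinclozolin alone, genistein alone, each at 1 mg/kg body weight per day, or, in the control group, no treatment according to the labels. Vinclozolin is a fungicide with antiandrogenic activity, and genistein is an isoflavone of soy, a ligand of the estrogen receptors. Offspring of all 8 groups (the 4 treatments at PND50 and at PND35) ate a purified phytoestrogen-free diet, 1 female was taken per litter, and glands were collected at PND50 or PND35. Each group had 2 arrays, and the RNA hybridised to an array was pooled from 5 animals. Variation among the animals of a pool was thus averaged out, and the spread behind each p-value is that between pools. The glands were whole tissue: all 15 luminal epithelium markers listed and all 10 adipocyte markers named on the array lay above the filter, and 13 skeletal muscle markers did so too. In such bulk RNA, fewer cells of a type and less RNA per cell cannot be told apart. The deposited values are log2 intensities, and a difference of 1 on this scale is a doubling of intensity.

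Type I interferons are secreted when cells sense foreign or misplaced nucleic acid, and they bind a receptor made of Ifnar1 and Ifnar2 chains. The receptor-bound kinases Jak1 and Tyk2 then activate the transcription factor ISGF3, which holds Irf9 as a DNA-binding part. ISGF3 binds the interferon-stimulated response element in the promoters of its target genes and switches them on together. The 9 genes are textbook targets of this pathway and encode antiviral effectors and regulators of the response itself.

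The promoters show the sequence that such genes share. The core of the interferon-stimulated response element was searched as a pair of GAAA half-sites separated by any 2 bases. Both strands were searched, so the half-sites may also read TTTC. The promoters are those of RefSeq for the rat assembly GRCr8 and run from 250 bases before to 50 bases after the annotated start. Promoters of Mx1, Ifit3, Oas1a, Irf7 and Rsad2 were at hand, and 4 of these 5 held the motif, all but Mx1. The motif occurred in 1312 of 33469 promoters (3.92%). In a list of other type I interferon response genes it occurred for 21 of the 33 genes with a promoter at hand (63.6%). This second share counts genes, each with a match in any of its promoters, and the first counts promoters. The windows are shown because they carry this match, and are written 5′ to 3′ on the strand of the gene, and capitals mark the match. Oas1a held 2 overlapping matches, which is why its capitals run longer. A match is a description of the letters and not a measured binding site.
Ifit3: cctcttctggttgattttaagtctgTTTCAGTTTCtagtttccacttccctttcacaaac
Oas1a: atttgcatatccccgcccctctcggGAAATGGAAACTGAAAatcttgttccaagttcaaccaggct
Irf7: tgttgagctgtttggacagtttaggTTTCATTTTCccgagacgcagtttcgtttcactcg
Rsad2: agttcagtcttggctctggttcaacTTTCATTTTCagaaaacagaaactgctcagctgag
In GRCr8 the Ifit3 window is chr1:241527257-241527316 on the plus strand, with the match starting 44 bases before the annotated start. The Oas1a window is chr12:41330400-41330465 on the plus strand, with matches starting 41 and 35 bases before the start. The Irf7 window is chr1:205800058-205800117 on the minus strand, with the match 69 bases before the start. The Rsad2 window is chr6:48788233-48788292 on the minus strand, with the match 147 bases before the start. The 10 matched letters are the same in Irf7 and Rsad2. By the same annotation Isg15 lies on chromosome 5, Usp18 on chromosome 4, and Mx1 and Mx2 on chromosome 11 with Fam3b between them. Ifit2 and Ifit3 are neighbours on chromosome 1, Oas1a lies between Oas1d and Oas1h on chromosome 12, and Rsad2 lies next to Cmpk2 on chromosome 6. The Mx, Ifit and Oas1 genes have close relatives, and how far their probe sets also bind a relative's RNA was not tested.

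Before the comparisons, the pools themselves need description, because a few of them stood apart for these genes. In the mixture group at PND50 the second pool lay above the first for all 9 genes, by 0.28 to 1.34 (median 0.80), while 52.7% of all genes tested were higher in it (median 0.01). In the mixture group at PND35 the second pool again lay above the first for all 9 genes, by 0.15 to 1.81 (median 0.62), while 48.2% of all genes were higher. Both of these pools were high for the interferon genes as a set and not for genes at large. In the vinclozolin group at PND35 the second pool lay below the first for all 9 genes, with differences of -0.95 to -0.15 (median -0.42), while 46.5% of all genes were higher in it. The second mixture PND50 pool was the highest of all 16 pools for 6 of the 9 genes and the highest of its age for 8, with Irf7 as the exception. The second mixture PND35 pool was the highest of its age for 7 genes, and the second vinclozolin PND35 pool was the lowest of all 16 for 7. In the control group at PND50 the second pool was lower for 7 genes and higher for 2 (median -0.25). The comparisons that include the mixture are therefore given with and without both second mixture pools, an alternative chosen after seeing the data. Apart from the interferon genes, both vinclozolin PND35 pools stood out for skin keratinocyte markers, with mean centred levels of 1.76 and 1.60, while the other 14 pools lay between -0.44 and -0.10.

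**Figure D1:**
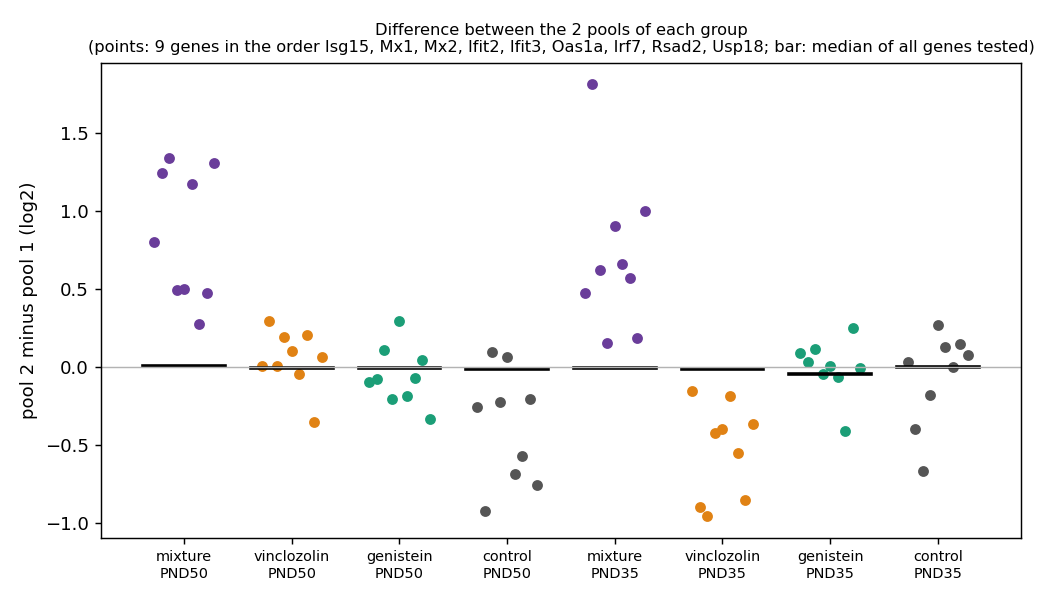
Difference between the second and the first pool of each group (log2) for the 9 interferon genes (points) beside the median of all 11796 genes tested (bar). All 9 genes are higher in the second mixture pool at PND50 and at PND35, and all 9 are lower in the second vinclozolin pool at PND35.

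The spread between pools of 1 group was large for all 9 genes. Their within-group standard deviation, pooled over the 8 groups, had a median of 0.30, against a median of 0.10 over all genes tested. Mx1 had 0.65, a value above that of 99.6% of the genes tested. Mx2 and Usp18 had 0.47 each, above 99.0%, and Oas1a had 0.39, above 98.5%. The other 5 genes ranged from 0.20 for Ifit2 to 0.30 for Ifit3, above 92.1% to 97.2% of genes. Over all 16 pools Mx2 spanned 3.34, Mx1 2.84 and Usp18 2.56 on the log2 scale, while Isg15 spanned 0.98 and Ifit2 1.14. With 2 pools per group, this spread sets what the comparisons can show.

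The regulator of the set is Irf7, the interferon regulatory factor that amplifies type I interferon production once it is itself induced. In PND50 pools Irf7 was 8.71 and 8.99 in the mixture group, 8.43 and 8.64 with vinclozolin, 8.81 and 8.74 with genistein, and 9.15 and 8.58 in controls. In PND35 pools it was 8.33 and 8.90 in the mixture group, 8.27 and 7.72 with vinclozolin, 8.61 and 8.20 with genistein, and 8.45 and 8.45 in controls. The PND50 pools lay above the PND35 pools without overlap within vinclozolin, genistein and control, and the 2 ages overlapped within the mixture.

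Isg15 and Usp18 act on the same modification. Isg15 encodes a ubiquitin-like protein that is attached to other proteins during the interferon response, and Usp18 encodes the protease that removes it and also blocks the interferon receptor. Usp18 at PND50 was 7.39 and 8.70 in the mixture group, 6.67 and 6.74 with vinclozolin, 7.77 and 7.44 with genistein, and 7.87 and 7.11 in controls. At PND35 Usp18 was 6.70 and 7.70 in the mixture group, 6.50 and 6.13 with vinclozolin, 6.22 and 6.22 with genistein, and 6.98 and 7.06 in controls. Usp18 was thus higher at PND50 without overlap within every treatment except the mixture, and vinclozolin pools were the lowest of their age at PND50. Isg15 spanned a narrower range, with 6.24 and 7.04 in mixture pools at PND50, 6.33 and 6.34 with vinclozolin, 6.53 and 6.44 with genistein, and 6.58 and 6.32 in controls. At PND35 Isg15 was 6.33 and 6.81 in mixture pools, 6.23 and 6.07 with vinclozolin, 6.07 and 6.16 with genistein, and 6.32 and 6.35 in controls. At each age 1 mixture pool stood above all other pools for Isg15, and the remaining 7 lay between 6.24 and 6.58 at PND50 and between 6.07 and 6.35 at PND35.

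Mx1 and Mx2 encode dynamin-like GTPases that trap viral components. Mx1 at PND50 was 7.91 and 9.16 in the mixture group, 6.95 and 7.24 with vinclozolin, 7.55 and 7.48 with genistein, and 7.97 and 7.05 in controls. At PND35 Mx1 was 7.10 and 8.91 in the mixture group, 7.21 and 6.32 with vinclozolin, 6.96 and 7.0 with genistein, and 7.61 and 7.21 in controls. The 2 highest Mx1 values were those of the second mixture pools. Mx2 at PND50 was 8.45 and 9.79 in the mixture group, 7.15 and 7.16 with vinclozolin, 7.77 and 7.88 with genistein, and 7.50 and 7.60 in controls. At PND35 Mx2 was 7.40 and 8.02 in the mixture group, 7.41 and 6.45 with vinclozolin, 7.05 and 7.17 with genistein, and 7.96 and 7.29 in controls. At PND50 both mixture pools lay above the other 6 pools for Mx2, so its high level there did not rest on 1 pool alone, whereas at PND35 the mixture and control pools overlapped.

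Ifit2 and Ifit3 encode tetratricopeptide repeat proteins that act on foreign RNA, and Oas1a encodes an oligoadenylate synthetase that senses double-stranded RNA and activates RNase L. Ifit2 at PND50 was 9.03 and 9.52 in the mixture group, 8.67 and 8.87 with vinclozolin, 9.14 and 8.94 with genistein, and 9.21 and 8.98 in controls. At PND35 Ifit2 was 8.91 and 9.06 in the mixture group, 8.80 and 8.38 with vinclozolin, 8.79 and 8.74 with genistein, and 9.13 and 8.95 in controls. The first mixture pool of either age lay within the range of the other groups for Ifit2, and the vinclozolin groups held the lowest value of each age. Ifit3 at PND50 was 6.45 and 6.95 in the mixture group, and the 6 pools of the other treatments lay between 6.22 and 6.55. At PND35 Ifit3 was 6.26 and 7.17 in the mixture group, and the other 6 pools lay between 5.95 and 6.49. Apart from the second mixture pools, Ifit3 therefore lay between 5.95 and 6.55. Oas1a at PND50 was 8.14 and 9.32 in the mixture group, 7.98 and 7.94 with vinclozolin, 8.41 and 8.22 with genistein, and 8.77 and 8.08 in controls. At PND35 Oas1a was 8.08 and 8.75 in the mixture group, 7.72 and 7.53 with vinclozolin, 7.86 and 7.80 with genistein, and 8.09 and 8.22 in controls. Vinclozolin pools held the 2 lowest Oas1a values at each age.

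Rsad2 encodes viperin, an enzyme that makes a chain-terminating nucleotide against viral polymerases. At PND50 Rsad2 was 6.86 and 7.34 in the mixture group, 6.83 and 6.49 with vinclozolin, 6.72 and 6.76 with genistein, and 6.98 and 6.78 in controls. At PND35 it was 7.80 and 7.99 in the mixture group, 8.0 and 7.15 with vinclozolin, 7.45 and 7.70 with genistein, and 7.61 and 7.76 in controls. Every treatment had both its PND50 pools below both its PND35 pools, and over all 8 pools per age only the vinclozolin PND35 pool at 7.15 fell inside the PND50 range.

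**Figure D2:**
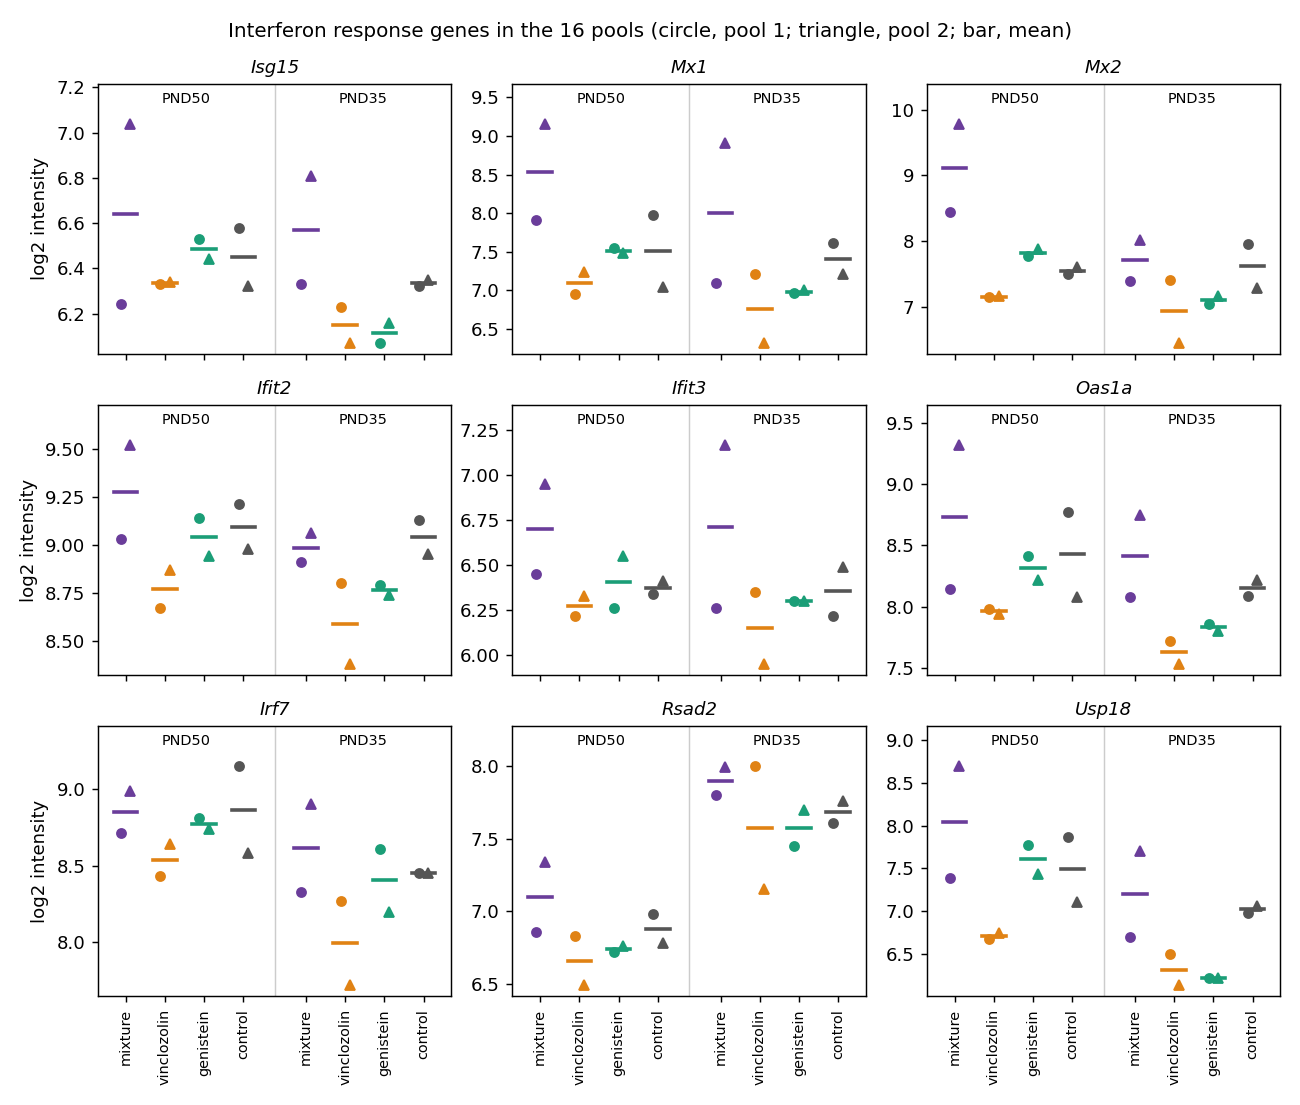
Log2 intensity of each of the 9 genes in all 16 pools, by treatment and age, with 1 point per pool. Rsad2 is lower at PND50 in every treatment, and the highest points of Mx1, Mx2, Oas1a and Usp18 are mixture pools.

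The first comparison asks how the genes differ between PND50 and PND35, both in the peripubertal period in which ovarian cycles begin and the ducts grow. Over the mean of the 4 treatments, 3 of the 9 genes rose and 1 fell by limma with Benjamini-Hochberg adjustment over all genes tested. The background was 44.6% of all genes called (19.4% higher and 25.2% lower), so a share of 4 in 9 is near that of genes in general. The median log2 difference of the 9 was 0.35, against -0.01 over all genes. Usp18 rose by 0.77 (SE 0.20, limma adjusted p = 0.00863), a 1.71-fold difference. Its lowest, median and highest values were 6.67, 7.41 and 8.70 over PND50 pools and 6.13, 6.60 and 7.70 over PND35 pools, so the ages overlapped. Irf7 rose by 0.39 (SE 0.12, limma adjusted p = 0.0198), with 8.43, 8.73 and 9.15 over PND50 pools and 7.72, 8.39 and 8.90 over PND35 pools. Mx2 rose by 0.57 (SE 0.20, limma adjusted p = 0.0350), but this call was lost when any 1 of 12 pools was left out, with differences of 0.40 to 0.74 over all pools left out in turn and adjusted p up to 0.0841. It held only without the first control PND35 pool, the first vinclozolin PND35 pool, the second mixture PND35 pool or the first mixture PND50 pool. Without the first mixture PND50 pool the count of genes called was 7, and without any other single pool it was 3 to 5. Without both second mixture pools the same 4 genes were called.

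Rsad2 fell by 0.84 on the log2 scale at PND50 (SE 0.12, 95% interval -1.09 to -0.58, limma adjusted p = 0.000374), which is 1.79-fold lower. Its values had a lowest of 6.49, a median of 6.81 and a highest of 7.34 over PND50 pools, and 7.15, 7.73 and 8.0 over PND35 pools. The difference was -0.94 to -0.73 when any single pool was left out. Pools of the 2 ages did not overlap within any of the 4 treatments, a pattern of lower values shared by 8.45% of all genes tested (the same pattern of higher values was shared by 4.56%). No gene of the 9 separated all 8 PND50 pools from all 8 PND35 pools, which 1.77% of all genes did with higher and 3.98% with lower values at PND50. Within treatments the Rsad2 difference was -0.79 in the mixture, -0.91 with vinclozolin, -0.83 with genistein and -0.81 in controls, and it passed the test in the mixture alone (SE 0.24, limma adjusted p = 0.0246). The adjusted p was 0.0642 with vinclozolin, 0.0727 with genistein and 0.122 in controls. That adjustment depends on all genes tested, of which 32.7% were called in the mixture and 0.865% in controls. Unadjusted, Rsad2 had a limma p of 0.0058 in the mixture and 0.0051 in controls, with the same SE. Its neighbour on the chromosome, Cmpk2, a mitochondrial nucleotide kinase that is also interferon-induced, differed by 0.07 between the ages (SE 0.07, adjusted p = 0.472). Rsad2 was the only one of the 9 with a lower mean at PND50.

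The other 5 genes did not pass the test. Ifit2 had a difference of 0.20 (95% interval 0.01 to 0.38, limma adjusted p = 0.0744), Oas1a of 0.35 (95% interval -0.0035 to 0.70, adjusted p = 0.0970) and Isg15 of 0.19 (95% interval -0.04 to 0.42, adjusted p = 0.164). Mx1 had 0.37, with a 95% interval from -0.22 to 0.96 (adjusted p = 0.276), and Ifit3 had 0.06, with a 95% interval from -0.21 to 0.33 (adjusted p = 0.712). The intervals of Mx1, Oas1a and Isg15 include the difference of 0.39 seen for Irf7, which passed.

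**Figure D3:**
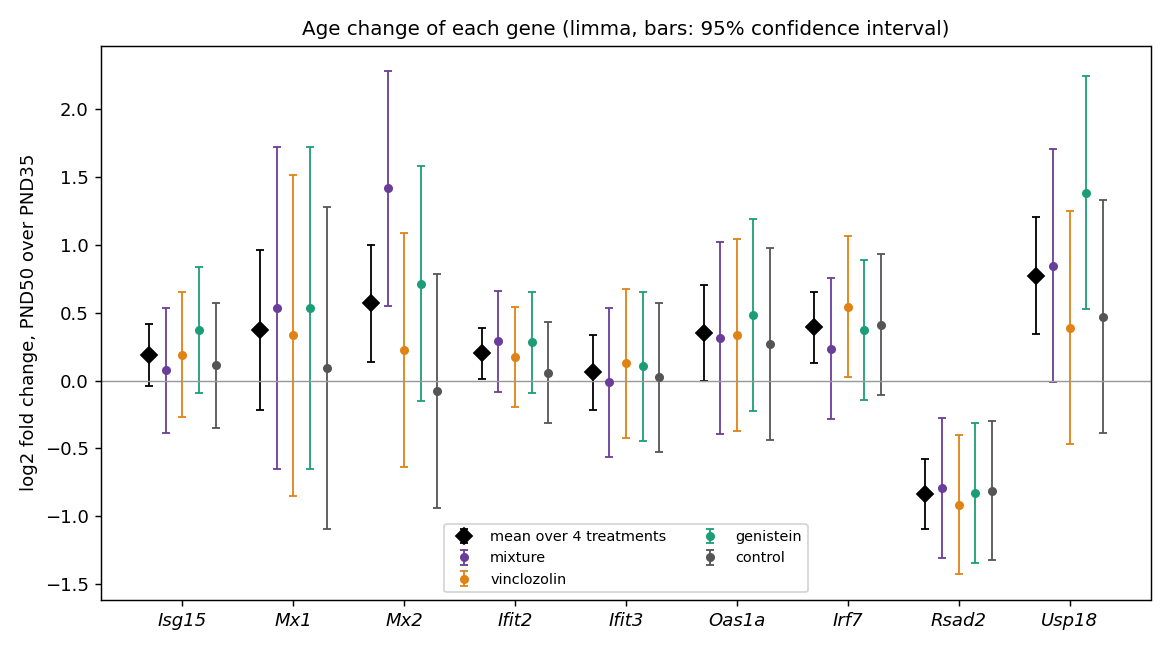
PND50 minus PND35 difference (log2) of each gene, as the mean over 4 treatments and within each treatment, with 95% intervals from limma. Rsad2 lies below 0 in all 4 treatments, and Usp18, Irf7 and Mx2 pass the test in the mean.

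Within the mixture, Mx2 was 1.41 higher at PND50 (SE 0.39, limma adjusted p = 0.0190) and Rsad2 was lower. These 2 of 9 genes were the only ones with an unadjusted p under 0.05, and both were called, against a background of 32.7%. These calls rest on single pools. None was called without the first mixture PND35 pool, only Mx2 without the second, only Rsad2 without the second mixture PND50 pool, and 4 genes (Mx2, Ifit2, Oas1a and Usp18) without the first. Without both second mixture pools none was called and the median difference of the 9 genes was 0.19. Within vinclozolin, genistein and control no gene was called by limma, against backgrounds of 2.78%, 2.77% and 0.865%, with 2, 2 and 1 of the 9 at an unadjusted p under 0.05. In the vinclozolin comparison Rsad2 passed without the second vinclozolin PND35 pool, and in the genistein and control comparisons it passed without either vinclozolin PND35 pool. In genistein, Usp18 had the largest difference among the 9, 1.38 (limma adjusted p = 0.0727), and it passed without both second mixture pools. The age difference itself was compared between treatments. No gene was called in the mixture against control (0% of all genes), vinclozolin against control (0.381%) or genistein against control (0%). The largest such difference was that of Mx2 between mixture and control, 1.49 (SE 0.56, limma adjusted p = 0.344). For the mixture against control the median over the 9 genes was 0.04 with all pools and 0.06 without both second mixture pools, with none called either way.

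The next comparisons ask whether exposure before weaning left a difference in the glands of the offspring. No gene of the 9 was called in any of the 10 comparisons between treatments by limma. These comparisons share pools: the same mixture, vinclozolin and control pools enter several of them, so their values are not independent of each other. The genes also moved together from pool to pool, as described below. A count out of the 9 is therefore not a count of separate observations, also where it stands beside a share of all genes.

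At PND50 the 9 genes as a set had their highest group mean in the mixture and their lowest with vinclozolin. The first mixture pool, however, lay below the first control pool. The mean of the 9 genes, each centred on its own mean over 16 pools, was 0.14 and 0.99 in the mixture pools, -0.30 and -0.24 with vinclozolin, 0.11 and 0.06 with genistein, and 0.27 and -0.11 in controls. At PND35 it was -0.11 and 0.60 in the mixture pools, -0.16 and -0.69 with vinclozolin, -0.29 and -0.29 with genistein, and 0.05 and -0.02 in controls. By group mean the order was mixture PND50 (0.56 ± 0.60, SD, n = 2), mixture PND35 (0.24 ± 0.50), genistein PND50 (0.09 ± 0.04), control PND50 (0.08 ± 0.27), control PND35 (0.02 ± 0.05), vinclozolin PND50 (-0.27 ± 0.04), genistein PND35 (-0.29 ± 0.0019) and vinclozolin PND35 (-0.43 ± 0.37). Only between control PND35 and vinclozolin PND50 did neighbours in this order have pools that did not overlap.

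Against vinclozolin at PND50, all 9 genes had higher means in the mixture, with a median difference of 0.51, while 52.9% of all genes were higher. None passed (0.0339% of all genes called), although 5 of 9 had an unadjusted p under 0.05, against 11.4% of all genes. Mx2 had the largest difference, 1.97 (SE 0.39, 95% interval 1.11 to 2.83, limma adjusted p = 0.157), followed by Mx1 with 1.44 (SE 0.54, adjusted p = 0.336) and Usp18 with 1.34 (SE 0.39, adjusted p = 0.251). The mixture pools lay above the vinclozolin pools without overlap for 8 of 9 genes, all but Isg15, a pattern seen for 23.7% of all genes. Without both second mixture pools the median difference was 0.20, and with 1 pool left out at a time it ran from 0.20 to 0.76. In the same comparison all 13 skeletal muscle markers had lower means in the mixture (median -2.28, none called) and 15 of 16 macrophage markers higher ones (median 0.10, none called).

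At PND35 all 9 genes again had higher means in the mixture than with vinclozolin (median 0.63), with 2.61% of all genes called. Of the 9, 6 had an unadjusted p under 0.05, against 20.8% of all genes, and 5 did not overlap, against 28.4%. Irf7 was 0.63 higher (SE 0.24, limma adjusted p = 0.162) and Oas1a 0.79 higher (SE 0.32, adjusted p = 0.191). The median was 0.33 without both second mixture pools, and 0.35 without the second vinclozolin PND35 pool. One gene passed without the first vinclozolin PND35 pool (Rsad2) and 1 without the first mixture PND35 pool (Ifit3), where the medians were 0.88 and 1.02. In the same comparison all 8 skin keratinocyte markers had lower means in the mixture (median -1.47, 5 called), all 13 skeletal muscle markers higher ones (median 1.45, 1 called) and 12 of 16 macrophage markers higher ones (median 0.22, none called). The part of these tissue markers in the differences between mixture and vinclozolin was not tested.

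Against untreated controls the differences were smaller. In the mixture at PND50, 8 of 9 genes had higher means (median 0.31), with 0.00848% of all genes called and 1 of the 9 at an unadjusted p under 0.05. That gene was Mx2, 1.57 higher than in controls (SE 0.39, 95% interval 0.71 to 2.44, limma adjusted p = 0.434). Mx2 and Ifit3 did not overlap, against 16.8% of all genes. The median of the 9 was -0.07 without both second mixture pools, so the sign of the set depended on them. Leaving them out could only lower it, since each was the higher mixture pool for all 9 genes. In the mixture at PND35, 8 of 9 had higher means (median 0.21, 0% of all genes called, 0 of 9 at an unadjusted p under 0.05), Rsad2 alone did not overlap, against 24.8% of all genes, and the median was -0.12 without those pools. Against genistein all 9 genes had higher means in the mixture at PND50 (median 0.36, 0.0254% of all genes called) and at PND35 (median 0.46, 0% called), with 1 of 9 at an unadjusted p under 0.05 at each age. The mixture pools lay above the genistein pools without overlap for Mx1, Mx2 and Rsad2 at PND50, against 17.4% of all genes, and for 7 of the 9 at PND35, all but Ifit3 and Irf7, against 15.5%. Without both second mixture pools the medians against genistein were -0.02 at PND50 and 0.22 at PND35. With 1 pool left out at a time, the medians against control ran from -0.07 to 0.60 at PND50 and from -0.12 to 0.47 at PND35. Those against genistein ran from -0.02 to 0.60 at PND50 and from 0.22 to 0.87 at PND35.

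Tissue markers differed in these comparisons as well. Skeletal muscle markers had lower means in the mixture than in controls at PND50 for all 13 (median -0.49) and higher means at PND35 for all 13 (median 1.16). Macrophage markers had lower means in the mixture than in controls for 13 of 16 at PND50 (median -0.09) and for 14 of 16 at PND35 (median -0.18), the opposite direction to the 9 genes. Against genistein at PND35, 14 of 15 luminal epithelium markers had lower means in the mixture (median -0.40) and all 13 muscle markers higher ones (median 0.70), and at PND50 all 13 muscle markers (median -0.59) and 14 of 16 macrophage markers (median -0.16) had lower ones. No marker was called in these 4 comparisons, and the part of these markers in the values of the 9 genes was not tested.

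Vinclozolin alone gave lower means than control for all 9 genes at both ages. At PND50 the median difference was -0.33 (0% of all genes called, 0 of 9 at an unadjusted p under 0.05), and the vinclozolin pools lay below the control pools without overlap for 5 genes, against 25.4% of all genes. The median was -0.13 without the first control PND50 pool. At PND35 the median was -0.46 (1.34% of all genes called, 1 of 9 at an unadjusted p under 0.05), with no overlap for 6 genes, against 24.3%. It was -0.20 without the second vinclozolin PND35 pool, which stood apart for these genes. The gene with the unadjusted p under 0.05 was Ifit2, with a difference of -0.44 (SE 0.17, limma adjusted p = 0.260). Usp18 had -0.79 at PND50 (adjusted p = 0.80) and -0.71 at PND35. Macrophage markers also had lower means with vinclozolin, 14 of 16 at PND50 (median -0.22, none called) and 15 of 16 at PND35 (median -0.35, 2 called). Skin keratinocyte markers had higher means with vinclozolin at PND35 for all 8 tested (median 1.44, 5 called, up to 5.53). At PND50 all 13 skeletal muscle markers had higher means with vinclozolin (median 1.73) and all 7 endothelial markers lower ones (median -0.14), with none called. The part of these markers in the lower values of the 9 genes was not tested.

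Genistein alone gave lower means for all 9 genes at PND35 (median -0.27, 0% called), and 5 higher and 4 lower at PND50 (median 0.01, 0% called), with 0 of 9 at an unadjusted p under 0.05 at either age. Genistein pools lay below control pools without overlap for 6 genes at PND35, against 14.4% of all genes. At PND50 they lay below for Rsad2 (15.8% of all genes) and above for Mx2 (14.4%). At PND35, 14 of 16 macrophage markers had lower means with genistein (median -0.27) and 14 of 15 luminal epithelium markers higher ones (median 0.39), with none called, and their part in the values of the 9 genes was not tested. Vinclozolin and genistein share the control pools, so their values against control are linked.

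**Figure D4:**
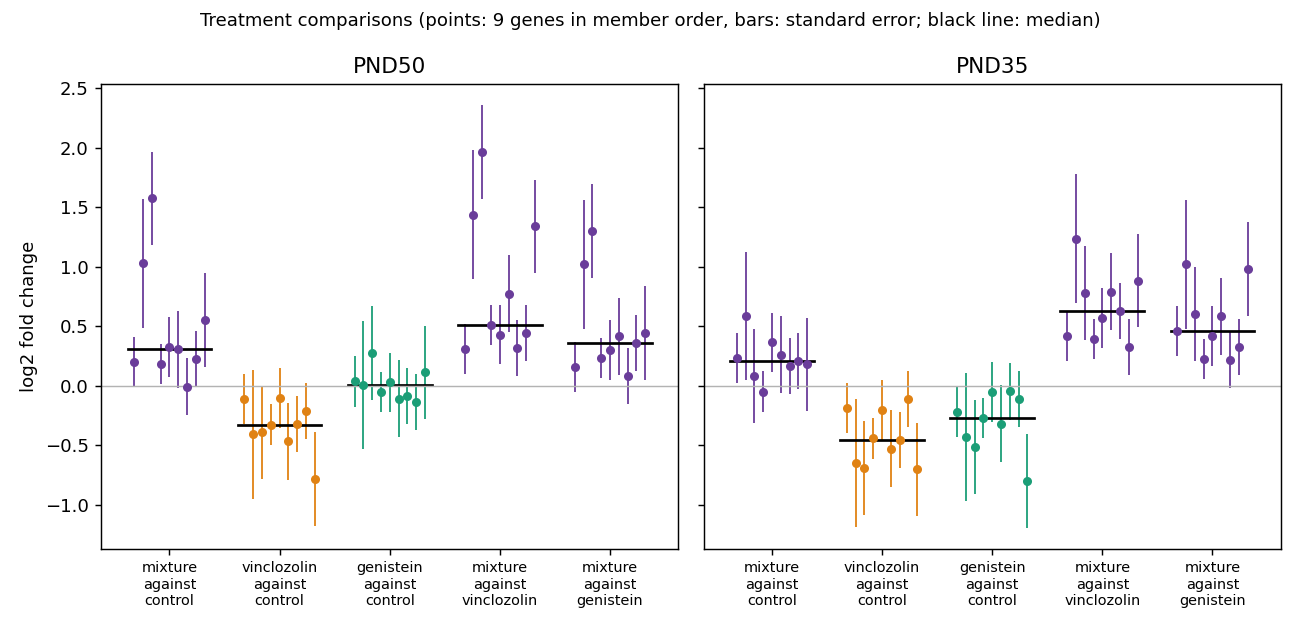
Difference (log2) of the 9 genes between treatments at PND50 and at PND35, with the genes in the order Isg15, Mx1, Mx2, Ifit2, Ifit3, Oas1a, Irf7, Rsad2, Usp18. All 9 lie above 0 for mixture against vinclozolin and below 0 for vinclozolin against control at both ages, and none passed the test.

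The 9 genes moved together from pool to pool, with 1 exception. Over the 16 pools, the 28 pairs that leave out Rsad2 had Pearson correlations of 0.62 to 0.95 (median 0.83). The 8 pairs with Rsad2 had correlations of -0.26 to 0.27 (median -0.0021). When each gene's deviations from its group means were used, which removes age and treatment, the pairs without Rsad2 had 0.49 to 0.98 (median 0.77) and those with Rsad2 0.52 to 0.70 (median 0.59). Rsad2 thus correlated with the other 8 in these deviations and differed from them in the direction of its age difference. With 2 pools per group, the deviations hold only 1 difference per group. Rsad2 did not follow the set in every group. In the vinclozolin group at PND50 its second pool was lower (-0.35), while 7 of the 9 genes were higher. In the genistein group at PND50 its second pool was higher (0.05), while 6 of the 9 genes were lower. Between treatments at 1 age its difference had the same sign as the other 8 in mixture against vinclozolin, mixture against genistein and vinclozolin against control, at both ages. These correlations describe the pools and carry no test, since pools of 1 group share treatment and age.

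The genes outside the set whose pattern was most like the mean of the 9 over the 16 pools were Oas1i (r = 0.97), Cxcl10 (0.94), Oasl (0.93), Rig1 (0.92), Samd9l (0.92), Jak1 (0.91), Oas1b (0.90) and Gbp5 (0.89). Oas1i, Oasl and Oas1b belong to the oligoadenylate synthetase family, and Oas1i and Oas1b are relatives of Oas1a. Cxcl10 is a chemokine that draws T cells, Rig1 is listed by RefSeq with the synonym Ddx58, the cytoplasmic RNA sensor, and Gbp5 is a guanylate-binding protein. Jak1 is the kinase of the interferon receptor itself. By the age comparison, Jak1 differed by 0.03 (SE 0.03, limma adjusted p = 0.449) and Samd9l by 0.04 (SE 0.08, adjusted p = 0.654), while Cxcl10 rose by 0.60 (SE 0.23, adjusted p = 0.0465).

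The rest of the pathway was followed through lists of other genes. Of the ligands, 3 of 11 genes listed were tested, and 2 rose at PND50: Ifna4 by 0.18 (SE 0.05, limma adjusted p = 0.0140) and Ifna5 by 0.21 (SE 0.07, adjusted p = 0.0363). Both are interferon alpha genes, whose family members are near-identical, so the probe sets may not tell them apart. Of 8 receptor and JAK-STAT genes tested, 3 rose and 0 fell (median 0.08). Irf9, the DNA-binding part of ISGF3, rose by 0.23 (SE 0.06, adjusted p = 0.00942), and the receptor chains Il10rb and Ifngr1 rose by 0.14 and 0.11. Of 15 sensors, adaptors and interferon regulatory factors, 8 rose and 0 fell (median 0.16), among them Irf8, a myeloid and B cell factor, by 0.42, the RNA sensor Tlr3 by 0.26, Irf2 by 0.20 and the adaptor Mavs by 0.18. Of 33 other type I response genes, 14 rose and 0 fell (median 0.14), led by Epsti1 (0.36), Herc6, a ligase that attaches Isg15 in mice (0.51), Trim25 (0.21) and Oas2 (0.59). Of 10 interferon gamma response genes, 5 rose and 0 fell (median 0.15), including Ciita, the master regulator of MHC class II (0.45), and the chemokine Cxcl11 (0.58). Each count stands against the background of 44.6% of all genes called, 19.4% higher and 25.2% lower. In either direction, the 14 of 33 other type I response genes called are near that 44.6%. None of these 5 lists had a gene called lower.

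Markers of several cell types differed between the ages beside the interferon genes, and their counts stand against the same background of 19.4% of genes higher and 25.2% lower. All 12 T and natural killer cell markers tested rose (median 0.37), and their mean centred level ranged from 0.16 to 0.40 over PND50 pools and from -0.37 to -0.09 over PND35 pools, without overlap. Of 6 B cell and plasma cell markers, 4 rose (median 0.17). Their levels were 0.07 to 0.28 over PND50 pools and -0.25 to -0.02 over PND35 pools, also without overlap. Of 8 plasmacytoid dendritic cell markers, 4 rose (median 0.13), with levels of -0.02 to 0.16 over PND50 pools and -0.16 to 0.04 over PND35 pools. Some of these markers, Irf8 among them, are also in the pathway lists above, so this list is not separate from those. Of 16 macrophage markers 5 rose and 2 fell (median 0.09), a share called close to the 44.6% of all genes, with levels of -0.15 to 0.15 over PND50 pools and -0.26 to 0.20 over PND35 pools. Luminal epithelium markers rose in 10 of 15 cases (median 0.24) and adipocyte markers fell in 4 of 10 (median -0.21). Skin keratinocyte markers fell in 3 of 8 (median -0.24) and skeletal muscle markers in 12 of 13 (median -1.25). Not every treatment shared these mean differences. Within vinclozolin all 13 muscle markers had higher means at PND50 (median 0.59, none called). All 8 keratinocyte markers had lower means within vinclozolin (median -1.29), whose PND35 pools stood out for them. In controls 7 of 8 keratinocyte markers had higher means, in the mixture 6 and with genistein 4. Within genistein 10 of 15 luminal markers had lower means (median -0.10, none called). The part of these shifts in the age differences of the 9 genes was not tested.

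Between the 2 mixture pools of 1 age, the immune markers differed less than the interferon genes. At PND50 the macrophage markers had mean levels of -0.01 in the first pool and 0.06 in the second, the T and natural killer cell markers 0.33 and 0.40, and the plasmacytoid dendritic cell markers 0.02 and 0.11. At PND35 these levels were -0.02 and -0.01 for macrophage markers, -0.34 and -0.37 for T and natural killer cell markers, and -0.10 and -0.16 for plasmacytoid dendritic cell markers. B cell and plasma cell markers had 0.08 and 0.24 at PND50 and -0.21 and -0.25 at PND35. Neutrophil markers had 0.03 and 0.01 at PND50 and 0.11 and -0.08 at PND35. In the same pools the 9 interferon genes had levels of 0.14 and 0.99 at PND50 and -0.11 and 0.60 at PND35. Their median differences were 0.80 and 0.62. In the vinclozolin group at PND35 the second pool, low for the 9 genes, was also lower for macrophage markers (-0.10 in the first and -0.26 in the second) and for T and natural killer cell markers (-0.17 and -0.30). It was lower than the first pool for all 7 endothelial markers (median -0.27) and 9 of 10 adipocyte markers (median -0.33), and higher for 13 of 15 luminal epithelium markers (median 0.21) and 12 of 13 skeletal muscle markers (median 0.27). The part of these shifts in its values was not tested. Other type I response genes moved the same way, with 29 of 33 higher in the second mixture PND50 pool (median 0.28), 27 of 33 in the second mixture PND35 pool (median 0.20) and 9 of 33 in the second vinclozolin PND35 pool (median -0.14). Skeletal muscle markers differed in opposite directions, with mean levels of -0.92 in the first and -2.09 in the second mixture pool at PND50, and 0.84 and 2.26 at PND35. The part of muscle and of immune cells in these pool differences was not tested.

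**Figure D5:**
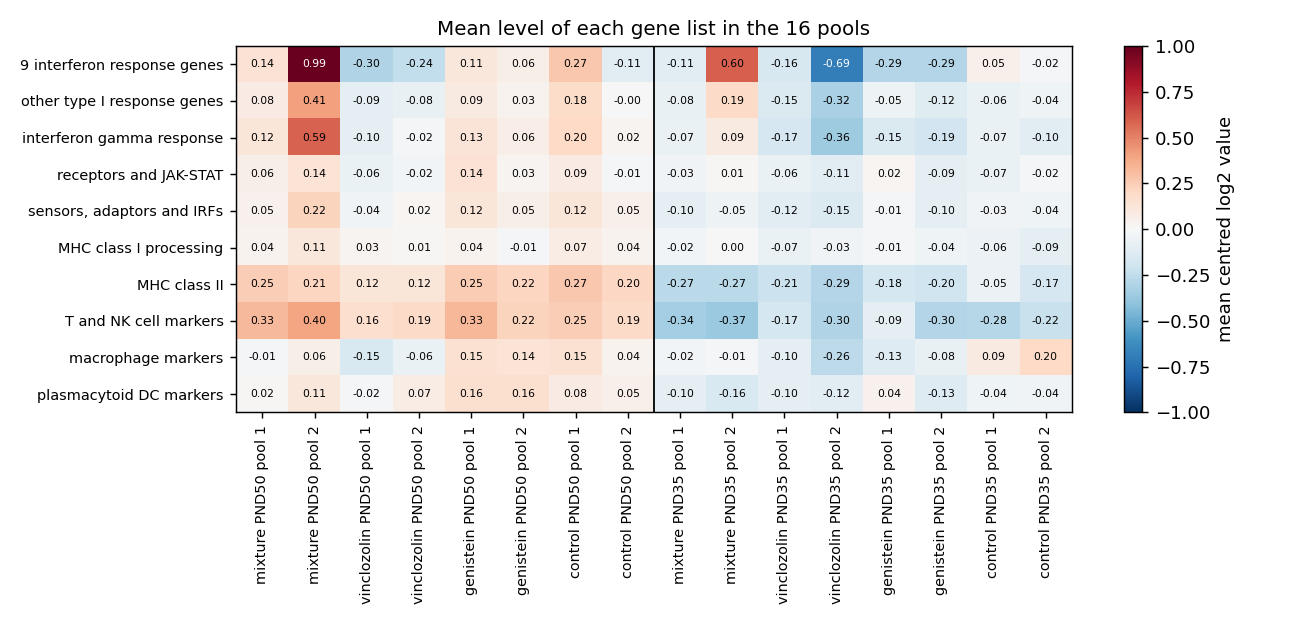
Mean centred level (log2) of the 9 interferon genes, of other gene lists of the pathway and of cell type markers in each of the 16 pools. The interferon genes reach 0.99 in the second mixture PND50 pool and 0.60 in the second mixture PND35 pool, while the macrophage markers stay between -0.02 and 0.06 in the 4 mixture pools.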

How the data were processed

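RNA of rat mammary glands was measured on 16 Affymetrix arrays, 2 for each of 8 groups, with groups and replicate numbers taken from the sample titles. Per the labels' protocols, RNA was extracted from individual glands with Trizol and labelled with biotin, and RNA of 5 animals was pooled for an array. The authors deposited a table of values for 27342 probe sets, which were read as log2 intensities because they lie between 2.2 and 13.9; log base, normalization and summarization were not given in the sources used here. No step was added to the values as deposited, with array medians of 7.05 to 7.145. The number of arrays limits the precision, with a median standard error of 0.0941 for a difference of 2 groups and 0.0471 for the mean age difference.

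Of the probe sets, 15420 are listed in the platform annotation, 15097 of them with 1 symbol, 323 with several, and 11922 are unnamed here; 15067 matched RefSeq genes of GRCr8. The build used to design the probe sets was not given in the sources used here, and gene positions are those of GRCr8. For each gene the probe set with the highest mean was kept, and genes with a mean under the 25th percentile (5.661) were left out. limma 3.58.1 in R 4.3.3 fitted 8 group means over 16 arrays (8 residual degrees of freedom, prior 3.63), two-sided, with Benjamini-Hochberg adjustment over 11796 genes and a threshold of 0.05. The steps were tested on simulated data. Figures used matplotlib 3.10.9 in Python 3.11.15.

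The 9 genes and the other lists were chosen with earlier results of these data known, so no list gives independent support. Genes were named by rule: all 9 members, up to 4 genes of each other list by the smallest p in the comparison described, and the 8 other genes with the highest correlation with the members' mean. Cmpk2, the neighbour of Rsad2, falls outside this rule and was chosen after its values were seen. Alternatives were other filters, normalizations, probe set choices and model settings, a block for the replicate number, and leaving out each pool in turn. Same-numbered pools of different groups were not paired by the labels, and the check of their deviations is given with the alternatives.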

Additional observations from a re-analysis of the deposited data

Results flagged for a closer look

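Among 18 sets of 1 gene and 1 age, 5 values stood far from the others of the 8 pools by Dixon's ratio of gap to range. Their ratios lay above the 95% critical value for 8 samples. Chance gives about 1 such value in 20 sets only if sets are independent and the pools of a set share a distribution. The pools of a set came from different treatments. The genes also moved together over the 16 pools (r = 0.62 to 0.95 for pairs without Rsad2). The 5 values therefore cannot be weighed against that rate. All 5 were the second mixture pool of their age, so they are not 5 separate observations. Isg15 was 7.04 at PND50 (ratio 0.586) and 6.81 at PND35 (0.614). Mx1 was 9.16 at PND50 (0.54). Ifit3 was 6.95 at PND50 (0.551) and 7.17 at PND35 (0.558).

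For Mx2 the difference between genistein and control ran in opposite directions at the ages, with 7.77 and 7.88 in genistein pools against 7.50 and 7.60 in control pools at PND50, and 7.05 and 7.17 in genistein pools against 7.96 and 7.29 in control pools at PND35. The age change was 0.79 larger with genistein than in controls (SE 0.56), which did not pass limma's test of the difference (adjusted p = 0.787).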

How the results depend on the processing

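Over 26 alternatives, 16 of 468 recomputed counts of genes called moved by over 1.5 times, and of 462 recomputed gene differences between the ages 14 changed sign. Leaving out 1 pool at a time, the count for the mean age difference ranged from 3 to 7, for the mixture from 0 to 4, for vinclozolin, genistein and control from 0 to 1 each, and for mixture against vinclozolin at PND35 from 0 to 1. Without both second mixture pools the mixture's count was 0 and genistein's 1. The control's count was 1 with array weights and 1 with only the arrays of the groups compared. The Mx2 call was also lost with an intensity trend and robust fit (limma adjusted p = 0.0658). Usp18, Irf7 and Rsad2 passed under every alternative in which they were tested, and Usp18 lies under a filter at the 50th percentile. Irf7 passed only narrowly at its weakest with 1 pool left out, where its differences ran from 0.32 to 0.46. Signs changed for Ifit3 in the mean age difference (-0.053 to 0.17 without 1 pool) and, within the mixture, for Isg15 (-0.32 to 0.48), Mx1 (-0.37 to 1.44), Ifit3 (-0.46 to 0.44), Oas1a (-0.27 to 0.90) and Irf7 (-0.051 to 0.52). Isg15 within the mixture was -0.0019 after quantile normalization and -0.085 without both second mixture pools, where Ifit3 was 0.19. The cause was not tested. A replicate block kept 4 calls in the mean age difference and changed no call of the 9 genes; deviations of same-numbered pools correlated between groups by -0.37 to 0.30, and 8 of 16 pools correlated best with a pool of their own number.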

Other observations

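Genes of MHC class II, which present peptides to helper T cells and are induced by interferon gamma through Ciita, were higher at PND50 in all 9 cases tested (median 0.35), against a background of 19.4% of genes called higher. RT1-Ba rose by 0.61 (SE 0.04), RT1-Db1 by 0.50 (SE 0.04) and the invariant chain Cd74 by 0.45 (SE 0.03). Their mean level lay between 0.12 and 0.27 over PND50 pools and between -0.29 and -0.05 over PND35 pools, without overlap. Of 14 genes for MHC class I antigen processing, 4 rose and 0 fell (median 0.05): the immunoproteasome subunit Psmb9 by 0.38, the peptide transporter Tap2 by 0.32, the trimming peptidase Erap1 by 0.26 and B2m by 0.10. In the second mixture pools, MHC class II genes did not follow the interferon genes at PND50, where 3 of 9 were higher than in the first pool (median -0.06).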
